A study of Homo sapiens with 34 samples.

Results

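Expression of 8 genes of the MEIS, PBX and PKNOX families was followed in human pluripotent stem cells (hPSCs) of the line ESI017 as they passed through primitive streak (PS) states toward definitive endoderm (DE), paraxial mesoderm (PM) or lateral mesoderm (LM). The genes were MEIS1, MEIS2, MEIS3, PBX2, PBX3, PBX4, PKNOX1 and PKNOX2, chosen by name as 8 of the 35940 gene symbols measured. RNA sequencing covered 17 conditions with 2 biological replicates each, 34 libraries in all, and every condition was wild-type ESI017, a single line. The control was kept undifferentiated in mTeSR Plus and is labelled 48 h. On day 1 (24 h) cells received 1 of 4 media. DE(a) medium held activin A (100 ng/ml) and CHIR99021 (2 µM). Anterior PS (APS) medium held less activin A (30 ng/ml), more CHIR99021 (4 µM) and also bFGF (20 ng/ml). Mid PS (MPS) medium was APS medium with CHIR99021 raised to 6 µM and with 40 ng/ml of BMP4 added. Posterior PS (PPS) medium was MPS medium without activin A. CHIR99021 inhibits GSK3 and so turns on Wnt signalling. On day 2 (to 48 h) each of these populations was moved to each of 3 media. DE(b) medium held 100 ng/ml activin A and 250 nM LDN193189, a BMP receptor inhibitor. PM medium held 20 ng/ml bFGF, 250 nM LDN193189 and 1 µM A8301, an inhibitor of activin and TGF-beta receptors. The listed recipe has no CHIR99021. Elsewhere, however, the paper describes Wnt activation as part of PM induction and gives CHIR99021 in the standard PM treatment of its Wnt dose series. In LM medium cells received BMP4 (30 ng/ml), A8301 again at 1 µM, and IWP2 (4 µM), which blocks Wnt secretion. A condition is written as its day 1 and day 2 media, for example PPS-LM, or as PPS-24h at the end of day 1.

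The proteins made by these genes are homeodomain transcription factors of the TALE class, named for 3 extra amino acids in a loop of the homeodomain. PBX proteins bind DNA together with HOX proteins and sharpen their choice of site. MEIS and PKNOX (also called PREP) proteins bind PBX through a shared amino-terminal region, help keep it in the nucleus, and can join PBX and HOX on DNA. In embryos MEIS and PBX genes are known for roles in limb, heart, hindbrain and blood formation, and the HOX genes that they serve are first turned on in the posterior PS.

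Promoter stretches of the 3 MEIS genes, whose levels carry most of the results, and of PBX3, which fell in PPS-24h, are shown for use beside those results. They were picked after the values were seen, and the gene counts do not show which start site was in use. The stretches were read from RefSeq promoter windows on GRCh38.p14, which held entries for 7 of the 8 genes (PKNOX2 had none), and only bases before the transcription start that lie outside untranslated regions are printed, 5′ to 3′ on the strand of the gene. Capitals mark a match on either strand to TGACAG, the core that MEIS and PKNOX proteins recognise, or to TGATNNAT, a composite PBX-HOX site.
MEIS1: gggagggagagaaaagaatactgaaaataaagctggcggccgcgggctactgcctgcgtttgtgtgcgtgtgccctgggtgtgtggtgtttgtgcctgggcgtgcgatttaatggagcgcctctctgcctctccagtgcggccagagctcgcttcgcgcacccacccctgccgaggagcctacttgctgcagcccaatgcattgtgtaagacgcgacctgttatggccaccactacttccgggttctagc
MEIS2: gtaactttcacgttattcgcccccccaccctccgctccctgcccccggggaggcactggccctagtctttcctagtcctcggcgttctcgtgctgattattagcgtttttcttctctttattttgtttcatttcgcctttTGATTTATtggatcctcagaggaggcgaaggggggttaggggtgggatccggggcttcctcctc
MEIS3: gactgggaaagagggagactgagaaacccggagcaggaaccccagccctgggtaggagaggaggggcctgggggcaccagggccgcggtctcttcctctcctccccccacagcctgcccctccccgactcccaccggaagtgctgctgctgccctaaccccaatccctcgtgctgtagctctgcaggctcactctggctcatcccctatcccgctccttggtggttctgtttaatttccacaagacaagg
PBX3: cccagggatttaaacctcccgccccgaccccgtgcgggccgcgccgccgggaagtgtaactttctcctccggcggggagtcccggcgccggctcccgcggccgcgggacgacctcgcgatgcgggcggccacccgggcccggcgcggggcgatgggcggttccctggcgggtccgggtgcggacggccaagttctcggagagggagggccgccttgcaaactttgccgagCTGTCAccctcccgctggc

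The MEIS1 stretch is chr2:66434875-66435124 on the plus strand, within the span of the gene (GENCODE annotation, 2:66433452-66573869) and outside its exons. The MEIS2 stretch is chr15:37098697-37098900 on the minus strand, before the second start in the table, and lies within the gene (15:36889204-37101299). It holds 1 PBX-HOX match, TGATTTAT, 64 bases before the start. The MEIS3 stretch is chr19:47419528-47419777 on the minus strand, just outside the gene (19:47403124-47419527). The PBX3 stretch is chr9:125747933-125748181 on the plus strand, within the gene (9:125747345-125967377), and 17 of its bases are exonic in some transcript. It holds 1 match to the MEIS core, read as CTGTCA on the printed strand, 20 bases before the start, and no printed match overlapped another of the motifs searched. Among all 35116 promoter windows in the table, 15.8% held TGACAG and 7.4% held TGATNNAT, so both matches are common words. The MEIS1 and MEIS3 windows held neither, nor did the window at the first MEIS2 start. The other members are PBX2 (6:32184733-32190202), PBX4 (19:19561707-19618693), PKNOX1 (21:42974510-43033931) and PKNOX2 (11:125164687-125433389), all protein coding.

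Libraries held between 15522780 and 23439799 estimated counts (median 19341117), and levels are given as CPM, the counts of a gene per 1000000 counts of its library. Replicate 1 of every condition came in 1 table and replicate 2 in another, and the table labelled as a repeat held the second replicates, so each comparison had 1 library per group in each table. Markers of the labelled states were present: summed POU5F1, NANOG and SOX2 ran from 1815 to 2127 CPM in the control and from 125 to 600 CPM at 48 h, TBX6 and MSGN1 summed to 196 to 280 CPM in PM, and HAND1, ISL1 and FOXF1 to 451 to 2263 CPM in LM. The endoderm genes SOX17 and FOXA2 were uneven among the DE(b) conditions, at 115 and 235 CPM summed in PPS-DE(b) and 408 to 597 CPM in the other 3. They were also found in DE(a)-LM (129 and 98.4 CPM) and in DE(a)-PM replicate 1 (106 CPM). Within PM the PS genes TBXT, MIXL1 and EOMES summed to 279 to 478 CPM in the 4 libraries of replicate 1 and to 590 to 761 CPM in those of replicate 2, so the replicates of PM stood apart from each other. LM libraries also carried genes that mark other cell types. The 5 amnion markers (TFAP2A, GATA3, VTCN1, GABRP and KRT7) summed to 63.1 to 374 CPM in LM against 2.35 to 13.2 CPM in PM. Of the 5, 4 had counts in every LM library, but the sum was mostly TFAP2A and GATA3. In APS-LM and MPS-LM GABRP (0.664 to 0.931 CPM) and KRT7 (0.291 to 0.483 CPM) lay below both control libraries, and VTCN1 was at most 0.258 CPM. In PPS-LM GABRP (31.8 and 51.9 CPM) and VTCN1 (5.77 and 9.74 CPM) lay above the control. Of the 6 blood and endothelial markers, KDR (288 to 1506 CPM) and GATA2 (119 to 459 CPM) were high in LM, and KDR was already at 158 and 198 CPM in the control. TAL1, CDH5 and PECAM1 stayed at or below 1.05 CPM in every LM library, and LMO2 was lower in LM (0.722 to 7.83 CPM) than in PM (22.3 to 98.6 CPM), so the sum of the list in LM was nearly all KDR and GATA2. These are bulk libraries, so a higher level in more cells and a higher level per cell cannot be told apart.

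MEIS1, a partner of PBX and HOX proteins known from blood and limb development, was nearly silent in hPSCs and reached its highest level in LM made from PPS. The control libraries read 0.0903 and 0.0532 CPM, which is 3 counts between them. At 24 h the pairs of replicates were 0.104 and 0.107 CPM in DE(a), 0.284 and 0.595 CPM in APS, 1.13 and 0.196 CPM in MPS, and 0.247 and 0 CPM in PPS, where 3 counts would have been 0.181 CPM. APS lay above DE(a) and PPS, and MPS overlapped APS and PPS. The gap between APS and PPS was 6 counts in APS replicate 1 against 5 in PPS replicate 1. MEIS1 did not pass the test of all day 1 treatments together at 24 h. In DE(b) medium MEIS1 stayed low: 0.443 and 0.930 CPM from DE(a), 0.885 and 1.09 CPM from APS, 1.69 and 1.55 CPM from MPS, and 2.69 and 1.29 CPM from PPS. In PM medium the levels were 25.1 and 40.2 CPM from DE(a), 22 and 32.4 CPM from APS, 9.72 and 7.75 CPM from MPS, and 3.77 and 3.90 CPM from PPS. The order in PM therefore ran down from the anterior to the posterior day 1 treatments, and only DE(a)-PM and APS-PM overlapped. In LM medium the levels were 15.2 and 22.5 CPM from DE(a), 32.2 and 23.1 CPM from APS, 6.48 and 8.92 CPM from MPS, and 63.3 and 56.3 CPM from PPS. PPS-LM stood above every other condition without overlap, and MPS-LM was the lowest of the LM conditions.

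With so few control counts a fold change of MEIS1 is best read as a ratio with its exact 95% counting interval, which covers counting error only. Against the control that ratio was 817 in PPS-LM (interval 279 to 3967), 436 in DE(a)-PM (149 to 2119), 52.2 in PPS-PM (17.6 to 256) and 28.2 in PPS-DE(b) (9.29 to 140). PPS-LM stood 441 times above PPS-24h (189 to 1361), the population it was made from, which had 5 counts. By edgeR's quasi-likelihood test with Benjamini-Hochberg adjustment over 17890 genes, which is the source of each adjusted p given here, MEIS1 was higher than the control in 13 of 16 conditions, from adjusted p = 0.0103 in DE(a)-DE(b) to 1.16e-09 in PPS-LM. At 24 h it passed in MPS alone (adjusted p = 0.00834), and that call was lost without MPS-24h replicate 1, control replicate 1 or control replicate 2 (adjusted p up to 0.446). The call in DE(a)-DE(b) was also lost without either control library or DE(a)-DE(b) replicate 2 (up to 0.114).

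MEIS2, the closest relative of MEIS1 and likewise a PBX partner, also started near 0 and was highest in LM, but with another order of conditions. The control read 0.226 and 0.106 CPM. At 24 h the levels were 0.207 and 0.0537 CPM in DE(a), 1.56 and 0.870 CPM in APS, 4.01 and 3.29 CPM in MPS, and 1.58 and 0.241 CPM in PPS, so MPS stood above the other 3 populations. After DE(b) medium MEIS2 stood at 0.246 and 1.92 CPM from DE(a), 1.44 and 2.47 CPM from APS, 10.7 and 11.2 CPM from MPS, and 24.5 and 21.1 CPM from PPS, so the posterior populations lay above the anterior ones, which overlapped. In PM the pairs were wide: 31.4 and 12.6 CPM from DE(a), 27.8 and 12 CPM from APS, 51.5 and 27.2 CPM from MPS, and 32.1 and 14.5 CPM from PPS. Replicate 1, with the lower sums of PS markers, was the higher in all 4, and the 4 conditions overlapped. The part of those markers in the result was not tested. In LM the levels were 21.4 and 45.4 CPM from DE(a), 75.4 and 83.5 CPM from APS, 68.7 and 68.9 CPM from MPS, and 64.6 and 71.2 CPM from PPS, and DE(a)-LM lay below the other 3. The ratio to the control, which had 7 counts, was 464 in APS-LM (counting interval 225 to 1156), 226 in MPS-PM (109 to 563), 135 in PPS-DE(b) (65.1 to 336) and 21.4 in MPS-24h (10.2 to 54.1). MEIS2 was higher than the control in 12 of 16 conditions, with adjusted p between 0.00807 in APS-DE(b) and 6.48e-08 in APS-LM, and DE(a)-DE(b) did not pass (adjusted p = 0.0734). The APS-DE(b) call was lost without APS-DE(b) replicate 2 or control replicate 2 (up to 0.0681).

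MEIS3, the third MEIS gene, behaved differently from both: it was already expressed in hPSCs, rose on day 1 and was highest on the anterior side. The control read 10.9 and 10.2 CPM. At 24 h it stood at 101 and 68.5 CPM in DE(a), 84.3 and 68.3 CPM in APS, 41.3 and 32.6 CPM in MPS, and 23.4 and 23.9 CPM in PPS, above the control in every library. In DE(b) medium the levels were 108 and 111 CPM from DE(a), 102 and 104 CPM from APS, 62.8 and 57.1 CPM from MPS, and 43.3 and 36.9 CPM from PPS, a series with no overlap between the 4 conditions. In PM they were 65.2 and 37.0 CPM, 49.4 and 30.2 CPM, 28.0 and 19.3 CPM, and 21.4 and 11.2 CPM in the same order of day 1 media, and replicate 1 was again the higher in all 4. In LM they were 69.4 and 60.1 CPM from DE(a), 73.9 and 65.7 CPM from APS, 46.8 and 27.1 CPM from MPS, and 28.3 and 17 CPM from PPS. Every treated library of MEIS3 lay above both control libraries. The log2 fold change against the control was 3.11 (SE 0.33, adjusted p = 3.85e-07) in DE(a)-24h and 3.40 (SE 0.33, adjusted p = 7.12e-08) in DE(a)-DE(b), the highest condition. It was 1.19 (SE 0.32, adjusted p = 0.00662) in PPS-24h and 0.62 (SE 0.32, adjusted p = 0.124) in PPS-PM, the only condition of 16 in which MEIS3 did not pass. Calls were lost in PPS-24h without control replicate 2 (adjusted p = 0.0634), in MPS-PM without MPS-PM replicate 1 or control replicate 2 (up to 0.101) and in PPS-LM without PPS-LM replicate 1 (0.122). Counts of MEIS3 are uncertain where its pseudogenes share its sequence, since the estimates could split reads among them: MEIS3P1 ran from 1.52 to 5.09 CPM and MEIS3P2 from 0.974 to 6.02 CPM.

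**Figure D1:**
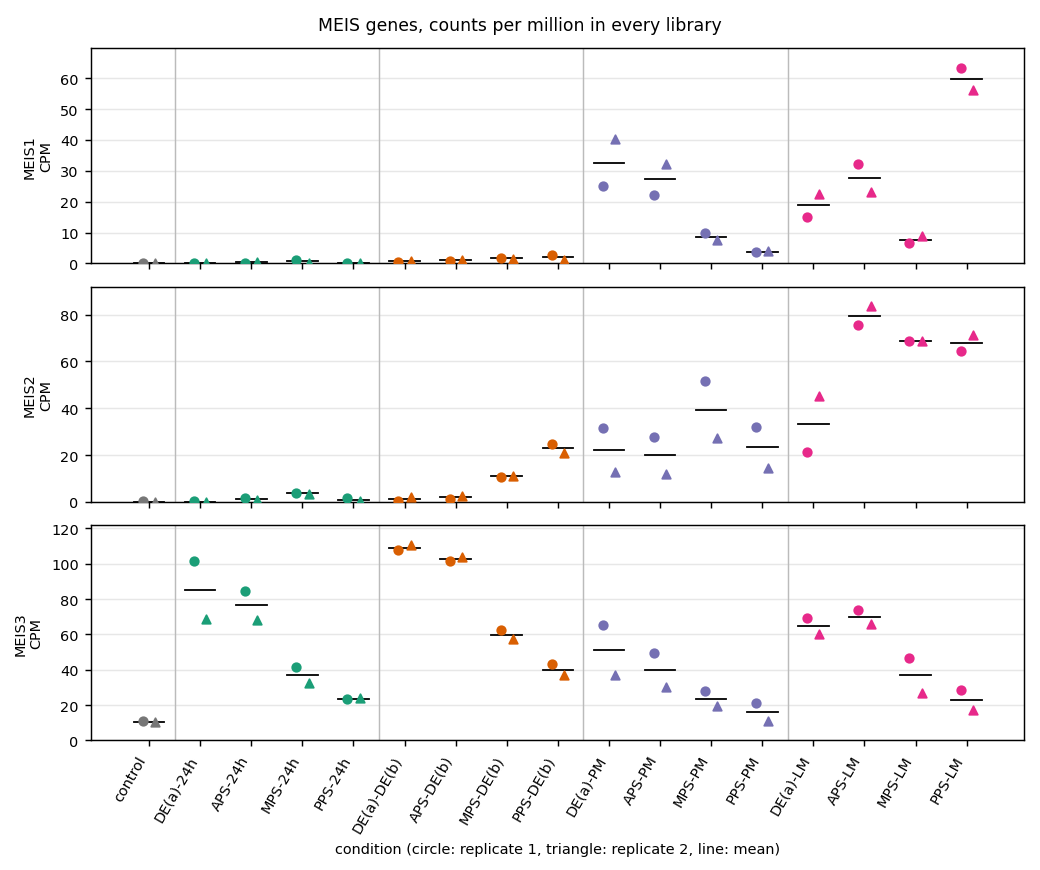
CPM of MEIS1, MEIS2 and MEIS3 (vertical axes, each from 0) in the 17 conditions (horizontal axis), with a circle for replicate 1, a triangle for replicate 2 and a line at their mean. MEIS1 peaks in PPS-LM at 63.3 and 56.3 CPM, MEIS2 in APS-LM at 75.4 and 83.5 CPM, and MEIS3 in DE(a)-DE(b) at 108 and 111 CPM.

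PBX2, a broadly expressed PBX gene, rose mainly between 24 and 48 h and reached similar levels in the 3 media. The control read 111 and 86.1 CPM, the 8 libraries at 24 h ran from 102 to 139 CPM with a median of 122 CPM, and the 24 libraries at 48 h from the treated cells started at 198 CPM. By medium they ran from 202 to 261 CPM in DE(b), from 198 to 223 CPM in PM and from 207 to 250 CPM in LM, so the groups at 24 h and 48 h did not overlap and the 3 media did. Against the control the log2 fold change at 48 h lay between 1.04 (SE 0.12, adjusted p = 6.43e-07) in DE(a)-PM and 1.43 (SE 0.12, adjusted p = 5.21e-09) in APS-DE(b). At 24 h PBX2 passed in DE(a), APS and PPS, with log2 fold changes of 0.40, 0.39 and 0.51, and not in MPS (0.24, SE 0.12, adjusted p = 0.139). Those 3 calls were lost without control replicate 2, at adjusted p = 0.341, 0.298 and 0.103. The first was lost also without DE(a)-24h replicate 1, and that of APS without either APS-24h library. PBX2 lies in the MHC region, which the genome assembly holds in several haplotype copies, and the table lists it under 7 identifiers, which were summed here. The identifier of the primary assembly, ENSG00000204304, held 3.11% of the summed counts, and 2 of the others held 58.6% and 30.7%. With that identifier alone standing for the gene, 21 of the PBX2 calls in all comparisons were lost.

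PBX3, which like PBX2 forms complexes with HOX and MEIS proteins, was expressed in hPSCs and fell in a single 24 h population. It read 32.2 and 38.7 CPM in the control, 32.1 and 33.2 CPM in DE(a)-24h, 38.0 and 37.3 CPM in APS-24h, 28.2 and 24.8 CPM in MPS-24h, and 9.86 and 10.2 CPM in PPS-24h. PPS-24h thus lay below all other libraries of the series. After DE(b) medium the same population was back at 50.1 and 42.3 CPM, beside 49.5 and 33.4 CPM in DE(a)-DE(b), 42.0 and 40.3 CPM in APS-DE(b), and 54.7 and 42.2 CPM in MPS-DE(b). In PM the levels were 35.6 and 31.2 CPM, 38.2 and 26.6 CPM, 27.8 and 24.8 CPM, and 23.9 and 19.1 CPM from DE(a), APS, MPS and PPS. In LM they were 45.4 and 51.8 CPM, 42.5 and 40.9 CPM, 28.1 and 25.6 CPM, and 23.4 and 18.7 CPM, with DE(a) and APS above MPS and PPS and no overlap between them. Against the control PBX3 was lower in PPS-24h (log2 fold change -1.80, SE 0.20, adjusted p = 3.28e-07), in PPS-PM (-0.73, SE 0.19, adjusted p = 0.00368) and in PPS-LM (-0.68, SE 0.19, adjusted p = 0.00575). It was higher in MPS-DE(b) alone (0.48, SE 0.19, adjusted p = 0.0461), a call that was lost in 29 of the 34 fits that each left out 1 library (up to 0.398). The PPS-PM call was lost without PPS-PM replicate 2 or control replicate 2 (up to 0.0635), and the PPS-LM call without PPS-LM replicate 2 or control replicate 2 (up to 0.0952).

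PBX4, a PBX gene best known from testis, was low throughout, from 0.215 CPM in 1 library of DE(a)-24h to 3.21 CPM in 1 library of DE(a)-DE(b). Its conditions formed 1 overlapping series: none of the 16 steps between neighbours in the order of means was free of overlap. None of the 16 comparisons with the control passed by edgeR, 1 had an unadjusted p under 0.05, and none passed by DESeq2. The largest was DE(a)-DE(b), at 2.22 and 3.21 CPM against 0.632 and 1.39 CPM in the control (log2 fold change 1.45, SE 0.70, adjusted p = 0.115).

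PKNOX1, a widely expressed partner of PBX proteins, rose modestly in the posterior 24 h populations and fell in PM. The control read 32.9 and 34.3 CPM. At 24 h the levels were 31.5 and 29.1 CPM in DE(a), 34.3 and 37.3 CPM in APS, 56.5 and 50.2 CPM in MPS, and 61.1 and 45.5 CPM in PPS, so MPS and PPS lay above the others. DE(b) libraries ran from 31.2 to 39.1 CPM and overlapped the control. PM libraries read 17.1 and 20.2 CPM from DE(a), 18.2 and 19.8 CPM from APS, 22.5 and 25.5 CPM from MPS, and 24.8 and 24.4 CPM from PPS, all below the control. In LM the levels were 22.2 and 21.6 CPM from DE(a), 33.6 and 30.2 CPM from APS, 38.1 and 33.0 CPM from MPS, and 42.4 and 35.0 CPM from PPS. Against the control PKNOX1 was higher in MPS-24h (log2 fold change 0.77, SE 0.14, adjusted p = 0.000179) and PPS-24h (0.69, SE 0.14, adjusted p = 0.000608). It was lower in all 4 PM conditions and in DE(a)-LM, from -0.87 (SE 0.14, adjusted p = 5.5e-05) in DE(a)-PM to -0.45 (SE 0.14, adjusted p = 0.0123) in PPS-PM. The MPS-PM call was lost without MPS-PM replicate 1 or control replicate 2 (up to 0.0946), and the PPS-PM call without control replicate 2 (0.0642).

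PKNOX2, the second PKNOX gene, was low until 24 h and rose in all 12 conditions at 48 h. It read 2.12 and 1.49 CPM in the control, 1.80 and 1.68 CPM in DE(a)-24h, 1.42 and 0.961 CPM in APS-24h, 0.998 and 0.736 CPM in MPS-24h, and 4.22 and 1.98 CPM in PPS-24h. With DE(b) medium it ran from 10.8 and 5.29 CPM in DE(a) to 11.6 and 10.8 CPM in APS, 15.9 and 15.1 CPM in MPS, and 26.4 and 29.8 CPM in PPS. In PM it stood at 42.2 and 39.5 CPM, 31.0 and 33.9 CPM, 28.1 and 23 CPM, and 28.8 and 32.0 CPM from DE(a), APS, MPS and PPS, and in LM at 21.9 and 28.2 CPM, 28.6 and 34.4 CPM, 30.3 and 34.6 CPM, and 37.4 and 38.9 CPM. Each 48 h library lay above all libraries of the control and of 24 h. The log2 fold change against the control ran from 2.17 (SE 0.32, adjusted p = 1.36e-05) in DE(a)-DE(b) to 4.46 in DE(a)-PM and PPS-LM (SE 0.33, adjusted p = 9.61e-10 and 5.28e-10). At 24 h the lowest adjusted p was that of MPS (0.0513, log2 fold change -0.95, SE 0.36).

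**Figure D2:**
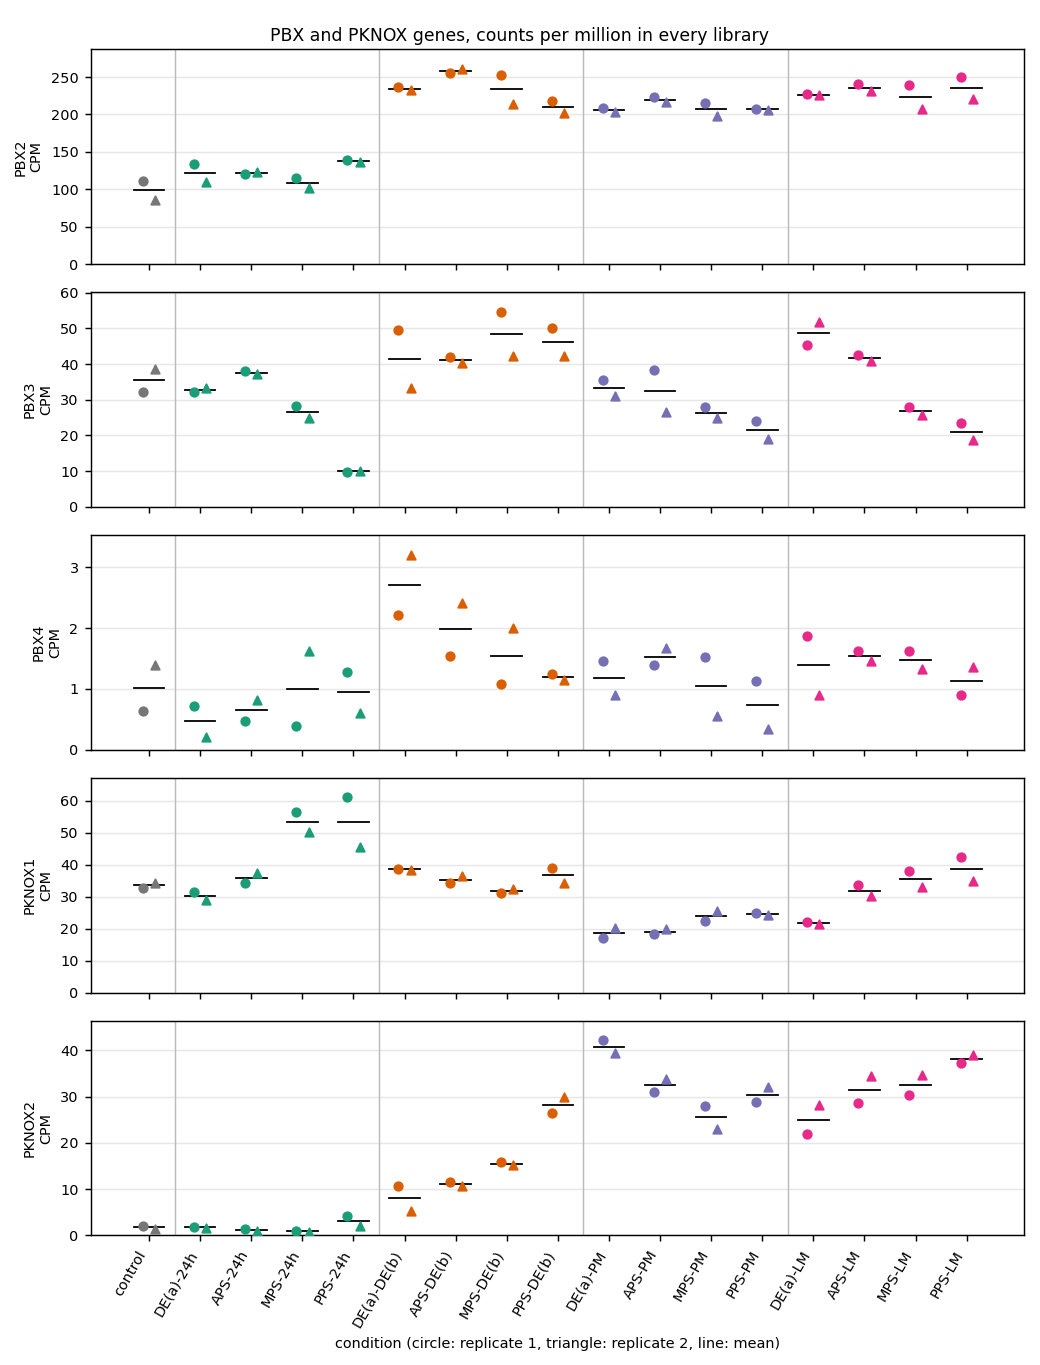
CPM of PBX2, PBX3, PBX4, PKNOX1 and PKNOX2 (vertical axes, each from 0) in the 17 conditions (horizontal axis), with a circle for replicate 1, a triangle for replicate 2 and a line at their mean. PBX2 and PKNOX2 step up between 24 h and 48 h, PBX3 dips to 9.86 and 10.2 CPM in PPS-24h, and PKNOX1 is lowest in PM.

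How many of the 8 genes differed from undifferentiated hPSCs was counted for each condition and set beside the share of all 17890 tested genes that passed. The 16 comparisons share the same 2 control libraries, so they are not independent of each other, and at 24 h the control is also of another time. At 24 h 2 members passed in DE(a) (19% of all genes passed), 2 in APS (24.5%), 4 in MPS (30%) and 4 in PPS (29.8%). In DE(b) medium 4 passed from DE(a) (34.7% of all genes), 5 from APS (38.4%), 6 from MPS (38.3%) and 5 from PPS (34.6%). In PM medium 6 passed from each day 1 population, against 31.4% of all genes from DE(a), 35% from APS, 35.8% from MPS and 40.9% from PPS. In LM medium 6 passed from DE(a) (34.9%), 5 from APS (43.4%), 5 from MPS (41.6%) and 6 from PPS (41.1%). Over the 128 tests 78 passed, 70 higher and 8 lower, which is 60.9% against 34.6% for all genes. At 24 h the 2 of 8 members called in DE(a) and in APS were a share close to that of all genes. At 48 h each condition had a larger share of the members called than of all genes, and the median log2 fold change of the 8 members lay between 0.84 in PPS-PM and 2.04 in APS-DE(b), and that of all genes was at most 0.04. Calls higher than the control numbered 13 for MEIS1, 12 for MEIS2, 15 each for MEIS3 and PBX2, and 12 for PKNOX2. The calls lower than the control belonged to PBX3 (3) and PKNOX1 (5). Each of the 153 calls in this and the other comparisons of 1 condition with 1 other had the same direction in both tables of replicates. Those libraries also gave the calls, so the shared direction is a description and not separate evidence.

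Neighbouring day 1 populations were compared to see where along the anterior to posterior series the members change at 24 h. No member passed between APS and DE(a) by edgeR, where 0.732% of all genes did, 2 members had an unadjusted p under 0.05, and by DESeq2 1 passed (MEIS2). Between MPS and APS PKNOX1 passed (2.93% of all genes), higher in MPS by 0.59 log2 units (SE 0.14, adjusted p = 0.0181), and the call was lost without either APS-24h library or MPS-24h replicate 1 (up to 0.235). Between PPS and MPS, which differ by activin A, 2 members passed (6.14% of all genes). PBX3 was lower in PPS (-1.48, SE 0.20, adjusted p = 6e-05), and PKNOX2 was higher by 1.76 (SE 0.35, adjusted p = 0.00352), a call that was lost without PPS-24h replicate 1 or MPS-24h replicate 2 (up to 0.0857). MEIS3 had means of 85.0, 76.3, 37.0 and 23.6 CPM along the series. None of its 3 steps passed by edgeR, 2 had an unadjusted p under 0.05, and 1 passed by DESeq2. For MEIS2 no step passed by edgeR, 3 had an unadjusted p under 0.05, and 2 passed by DESeq2. These numbers were 0, 2 and 1 for MEIS1 and 0, 1 and 0 for PBX2.

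The second day was followed by comparing each 48 h condition with the 24 h population it was made from. In DE(b) medium the members that passed numbered 4 from DE(a) (28% of all genes), 2 from APS (30.6%), 4 from MPS (27.9%) and 6 from PPS (20.5%). In PM medium they numbered 6 from DE(a) (23.6%), 6 from APS (25.1%), 5 from MPS (22.6%) and 6 from PPS (20.3%). In LM medium they numbered 5 from DE(a) (32.2%), 4 from APS (37.2%), 5 from MPS (31.3%) and 6 from PPS (25%). In all, 59 of 96 tests passed (61.5% against 27% for all genes), 48 of them higher at 48 h. Comparisons that start from the same population share its 2 libraries.

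PBX2 and PKNOX2 rose over the second day in all 12 conditions. The log2 fold change of PBX2 lay between 0.56 (SE 0.12, adjusted p = 0.00158) in PPS-PM and 1.04 (SE 0.12, adjusted p = 1.09e-06) in MPS-DE(b), and that of PKNOX2 between 2.13 (SE 0.32, adjusted p = 3.37e-05) in DE(a)-DE(b) and 5.20 (SE 0.35, adjusted p = 5.32e-10) in MPS-LM. MEIS1 rose in all 8 PM and LM conditions and in 2 of the 4 DE(b) conditions, DE(a)-DE(b) and PPS-DE(b), and MEIS2 in all 8 and in PPS-DE(b). In PPS-DE(b) MEIS2 rose 23.6 times over PPS-24h (counting interval 16.9 to 33.9, adjusted p = 5.47e-05). The MEIS1 call in DE(a)-DE(b) (adjusted p = 0.0328) was lost without either DE(a)-24h library or DE(a)-DE(b) replicate 2 (up to 0.245).

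PKNOX1 was the member that fell most often on day 2, in 9 of 12 conditions: all 4 in PM, where the log2 fold change reached -1.26 (SE 0.14, adjusted p = 1.02e-06) from MPS, 3 in LM and 2 in DE(b). Its calls in PPS-DE(b) and PPS-LM were lost without PPS-24h replicate 1, and without replicate 2 of the 48 h condition itself (up to 0.222 and 0.426). PBX3 rose from its low level in PPS-24h in all 3 media, by 2.25 (SE 0.20, adjusted p = 4.26e-08) in DE(b), 1.07 (SE 0.19, adjusted p = 0.000361) in PM and 1.12 (SE 0.20, adjusted p = 0.000164) in LM. It also rose in MPS-DE(b) (0.80, SE 0.19, adjusted p = 0.00258), a call lost without MPS-DE(b) replicate 1 or MPS-24h replicate 2 (up to 0.0606). MEIS3 fell in APS-PM (-1.04, SE 0.30, adjusted p = 0.014) and DE(a)-PM (-0.86, SE 0.30, adjusted p = 0.0438). The first call was lost without APS-24h replicate 1 or APS-PM replicate 2 (up to 0.209) and the second in 24 of the 34 fits without 1 library (up to 0.421). PBX4 passed in DE(a)-DE(b) alone (2.44, SE 0.74, adjusted p = 0.0165), which was lost without DE(a)-24h replicate 2 or DE(a)-DE(b) replicate 2 (up to 0.162).

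**Figure D3:**
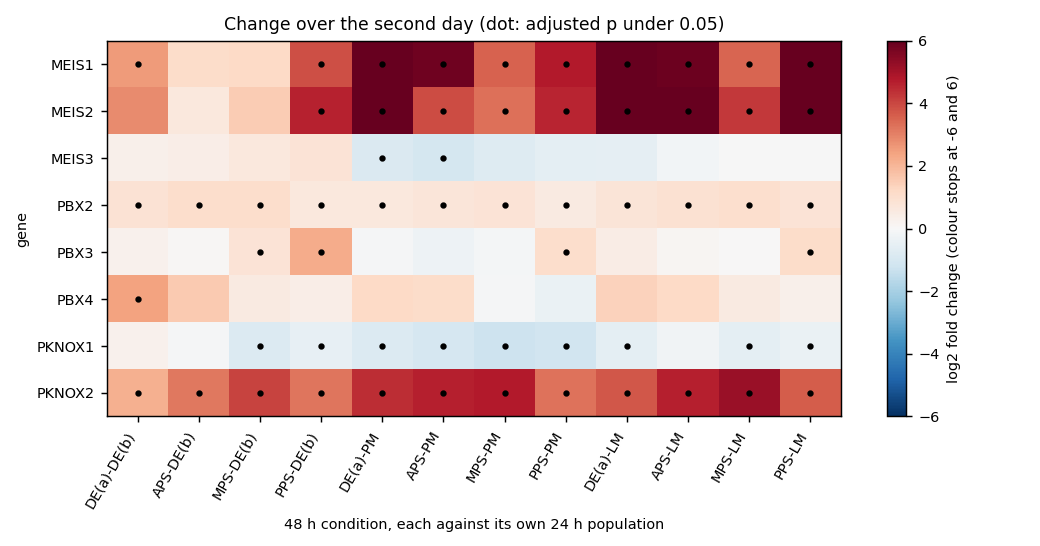
Log2 fold change (colour, red higher and blue lower at 48 h, stopping at -6 and 6) of each of the 8 genes (rows) in the 12 conditions at 48 h, each against its own 24 h population (columns), with a dot where the adjusted p is under 0.05. PBX2 and PKNOX2 are red with dots in all 12 columns, and PKNOX1 is blue with dots in all 4 PM columns.

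The effect of the day 2 medium itself was tested on means over the 4 day 1 populations. From DE(b) to PM 7 members passed, all but PBX4 (43% of all genes), and from PM to LM 6 members passed, all of them higher in LM (42%). From DE(b) to LM 6 members passed as well (39.6%). MEIS1 rose from DE(b) to PM by 3.37 log2 units (SE 0.26, adjusted p = 5.12e-10) and, on average, from PM to LM by 0.82 (SE 0.22, adjusted p = 0.00531). That second mean hid opposite directions: the mean level went from 3.84 to 59.8 CPM after PPS and from 32.6 to 18.9 CPM after DE(a), and it was 27.2 and 27.7 CPM after APS and 8.73 and 7.70 CPM after MPS. MEIS2 rose on average by 2.34 (SE 0.31, adjusted p = 1.84e-06) and 1.31 (SE 0.28, adjusted p = 0.000556). PKNOX2 rose on average by 1.12 (SE 0.14, adjusted p = 7.1e-07) from DE(b) to PM, with a value from PM to LM of 0.05 (SE 0.14, adjusted p = 0.849). From DE(b) to PM both rose without overlap after DE(a), APS and MPS. After PPS the libraries overlapped, with means of 22.8 and 23.3 CPM for MEIS2 and 28.1 and 30.4 CPM for PKNOX2. From PM to LM PKNOX2 fell after DE(a) (40.8 to 25.1 CPM). It rose after MPS (25.5 to 32.5 CPM) and PPS (30.4 to 38.1 CPM), and none of these pairs overlapped. After APS its means were 32.4 and 31.5 CPM. The other members that passed moved down, on average, from DE(b) to PM. MEIS3 was lower in PM (-1.34, SE 0.15, adjusted p = 2.39e-07), as were PKNOX1 (-0.78, SE 0.07, adjusted p = 4.69e-09), PBX3 (-0.72, SE 0.09, adjusted p = 1.48e-06) and PBX2 (-0.21, SE 0.06, adjusted p = 0.006). PBX4 passed in none of the 3 comparisons by edgeR or DESeq2, and 1 had an unadjusted p under 0.05.

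From PM to LM PKNOX1 rose by 0.60 (SE 0.07, adjusted p = 2.67e-07), MEIS3 by 0.62 (SE 0.15, adjusted p = 0.00199), PBX3 by 0.29 (SE 0.09, adjusted p = 0.017) and PBX2 by 0.19 (SE 0.06, adjusted p = 0.012). The PBX3 call was lost without PPS-LM replicate 1, DE(a)-LM replicate 2, or replicate 2 of DE(a)-PM, APS-PM or PPS-PM (up to 0.0729), and the rise was seen after DE(a) (33.4 to 48.6 CPM) and APS (32.4 to 41.7 CPM), with means of 26.3 and 26.9 CPM after MPS and 21.5 and 21.1 CPM after PPS. From DE(b) to LM MEIS3 (-0.71, SE 0.15, adjusted p = 0.000613) and PBX3 (-0.43, SE 0.09, adjusted p = 0.000717) were lower on average. The PBX3 means went from 48.4 to 26.9 CPM after MPS and from 46.2 to 21.1 CPM after PPS, but were 41.5 and 48.6 CPM after DE(a) and 41.2 and 41.7 CPM after APS. In the same comparison PKNOX1 fell by 0.18 on the log2 scale (SE 0.07, adjusted p = 0.0439), a call lost in 14 of the 34 fits without 1 library (up to 0.119). Its means went from 38.6 to 21.9 CPM after DE(a) and from 35.4 to 31.9 CPM after APS, and from 31.7 to 35.5 CPM after MPS and 36.8 to 38.7 CPM after PPS. LM and PM also differed in the summed amnion markers (63.1 to 374 against 2.35 to 13.2 CPM). In LM these were mostly TFAP2A and GATA3, and the part of these markers in the result was not tested.

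PPS and DE(a) are the 2 ends of the day 1 series, and comparing them after each medium shows how much of day 1 was still visible in the members on day 2. At 24 h 3 members passed (21% of all genes). After the second day 3 passed with DE(b) medium (17.4%), 3 with PM medium (8.61%) and 4 with LM medium (14.3%). MEIS3 was lower after PPS at each stage, with log2 fold changes of -1.92 (SE 0.31, adjusted p = 0.000119) at 24 h, -1.40 (SE 0.31, adjusted p = 0.00243) in DE(b), -1.63 (SE 0.31, adjusted p = 0.00165) in PM and -1.42 (SE 0.31, adjusted p = 0.00249) in LM. The PM call was lost without DE(a)-PM replicate 1 or PPS-PM replicate 2 (up to 0.0679) and the LM call without PPS-LM replicate 2 (0.08). MEIS1 went opposite ways in the 2 mesoderm media. It was lower after PPS in PM (-3.07, SE 0.48, adjusted p = 0.000253) and higher after PPS in LM (1.75, SE 0.45, adjusted p = 0.0098), although the LM call was lost without DE(a)-LM replicate 1 or PPS-LM replicate 1 (up to 0.141). The difference between these effects was 4.82 (SE 0.66, adjusted p = 6.37e-05), and 6.52% of all genes passed that test, MEIS1 being the 1 member to do so.

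MEIS2 was higher after PPS in DE(b) medium, by 4.48 log2 units (SE 0.71, adjusted p = 9.67e-05), and did not pass in PM or LM. Its effect in DE(b) differed from those in PM and LM by the tests of the differences, in which 3 members each passed (7.71% of all genes for PM minus DE(b), 9% for LM minus DE(b)). PKNOX2 was likewise higher after PPS in DE(b) (1.85, SE 0.29, adjusted p = 7.96e-05) and did not pass at the other stages. Markers of the germ layers moved with these DE(b) results. In PPS-DE(b) the lateral mesoderm markers summed to 110 and 75.7 CPM and the paraxial ones to 63.2 and 63.6 CPM, against 0.542 and 0.698 CPM and 2.27 and 1.92 CPM in DE(a)-DE(b). The lateral sum in PPS-DE(b) was mostly HAND1 (100 and 69.3 CPM), with ISL1 at 8.24 and 5.69 CPM and FOXF1 at 1.69 and 0.667 CPM. SOX17 and FOXA2 summed to 115 and 235 CPM against 416 and 565 CPM, and the part of these markers in the results was not tested. PBX3 was lower after PPS at 24 h (-1.78, SE 0.20, adjusted p = 9.58e-07) and in LM (-1.12, SE 0.19, adjusted p = 0.000218), and stood at 0.20 (SE 0.19, adjusted p = 0.519) in DE(b). In PM its value of -0.61 (SE 0.19, adjusted p = 0.0443) was lost in 28 of the 34 fits without 1 library (up to 0.34). PKNOX1 was higher after PPS at 24 h (0.74, SE 0.14, adjusted p = 0.000508) and in LM (0.92, SE 0.14, adjusted p = 7.15e-05), and in PM its value was 0.42 (SE 0.14, adjusted p = 0.0725). PBX2 and PBX4 passed none of these 7 comparisons by edgeR or DESeq2, and neither had an unadjusted p under 0.05. In LM the 2 treatments differed in markers too. SOX17 and FOXA2 summed to 129 and 98.4 CPM after DE(a) and to 0 and 0.0547 CPM after PPS, and the lateral mesoderm markers to 451 and 918 CPM and to 2038 and 1989 CPM. The 5 amnion markers summed to 189 and 240 CPM after DE(a) and to 265 and 374 CPM after PPS. GABRP read 1.72 and 5.40 CPM after DE(a) and 31.8 and 51.9 CPM after PPS. TFAP2A read 55.1 and 88.2 CPM after DE(a) and 113 and 167 CPM after PPS. VTCN1 and KRT7 were also higher after PPS, without overlap. GATA3 alone read in the same range (129 and 140 CPM after DE(a), 107 and 136 CPM after PPS). The part of these markers in the LM results was not tested.

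**Figure D4:**
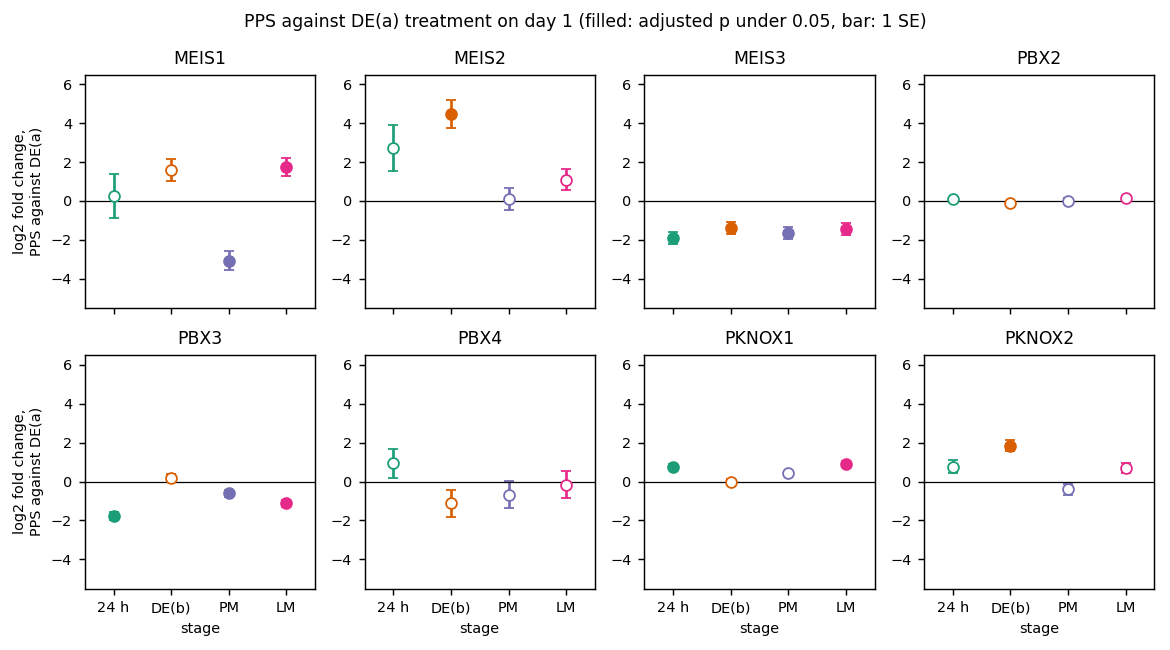
Log2 fold change of PPS against DE(a) on day 1 (vertical axis) for each of the 8 genes at 24 h and after DE(b), PM and LM medium (horizontal axis), with bars of 1 SE and filled points where the adjusted p is under 0.05. MEIS3 lies below 0 at each stage, and MEIS1 lies at -3.07 in PM and 1.75 in LM.

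The 4 day 1 treatments were also tested together at each stage. At 24 h 5 members passed (18.8% of all genes): MEIS2, MEIS3, PBX3, PKNOX1 and PKNOX2, with adjusted p from 0.00683 for MEIS2 to 1.12e-06 for PBX3. Among the DE(b) conditions 3 passed (16.6%), MEIS2 (adjusted p = 7.67e-05), MEIS3 (0.00473) and PKNOX2 (0.000223). In PM 2 passed (7.47%), MEIS1 (0.00039) and MEIS3 (0.00443), and in LM 4 passed (19.6%), MEIS1 (0.000382), MEIS3 (0.00203), PBX3 (0.000339) and PKNOX1 (0.000224). The interaction of day 1 and day 2 passed for 5 members (13.1%), MEIS1 (9.6e-05), MEIS2 (0.00628), PBX3 (0.0112), PKNOX1 (0.00721) and PKNOX2 (0.00602). MEIS3 differed among day 1 treatments in each of the 4 stages and did not pass for interaction (0.991), while PBX2 and PBX4 passed none of the 5 by either tool, with no unadjusted p under 0.05. The call of PKNOX2 at 24 h was lost without PPS-24h replicate 1 (0.0874), that of MEIS3 in DE(b) without PPS-DE(b) replicate 2 (0.0587), and the interaction of PBX3 without PPS-DE(b) replicate 1 (0.0632).

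Levels of different genes were compared after dividing mean CPM by the length of the canonical transcript in kilobases. On that scale PBX2 lay above the other members in 15 of 17 conditions, from 30.5 ± 5.35 CPM per kilobase (SD, n = 2) in the control to 79.9 ± 1.22 (SD, n = 2) in APS-DE(b). In APS-24h PBX2 and MEIS3 were level at 37.8 CPM per kilobase (SD 0.723 and 5.60, n = 2). In DE(a)-24h MEIS3 read 42.0 CPM per kilobase and PBX2 37.5, a difference below the SD of 11.5 between the MEIS3 libraries, and with the length of all annotated exons joined PBX2 was first there as well. MEIS1 was the lowest of the 8 in the control and PBX2 the highest. In PPS-LM MEIS1 reached 13.1 ± 1.09 CPM per kilobase (SD, n = 2), second after PBX2 at 72.8, with MEIS2 at 12.4, MEIS3 at 11.2 and PKNOX2 at 10.5 close below. With the length of all exons MEIS1 had rank 4 there, and 29 of the 136 ranks changed between the 2 lengths.

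**Figure D5:**
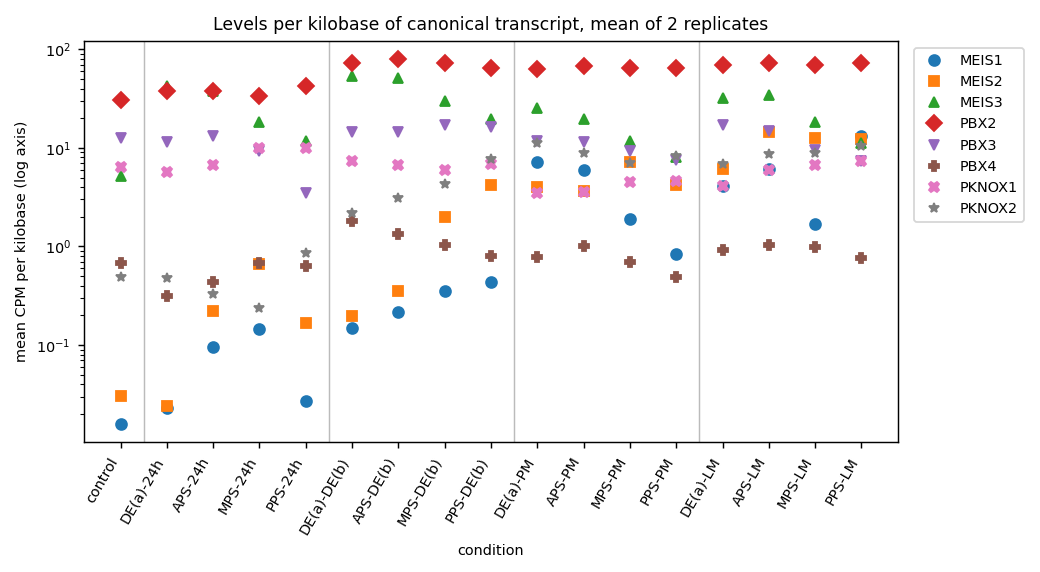
Mean CPM per kilobase of canonical transcript (vertical axis, log scale) of the 8 genes in the 17 conditions (horizontal axis), each point the mean of 2 replicates. PBX2 is the topmost point in 15 conditions and level with MEIS3 in APS-24h, and MEIS1 moves from the bottom in the control to second in PPS-LM.

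The HOX genes, whose proteins bind DNA with the members, were counted in the same comparisons, 37 of 39 having passed the filter on low counts. Shares in brackets are those of all genes that passed in either direction. Against the control 3 were higher in DE(a)-24h (19%), 11 in APS-24h (24.5%), 24 in MPS-24h (30%) and 34 in PPS-24h (29.8%). After DE(b) medium 0, 2, 15 and 32 were higher from DE(a), APS, MPS and PPS (34.7%, 38.4%, 38.3% and 34.6%). In PM 22, 23, 29 and 28 were higher (31.4%, 35%, 35.8% and 40.9%), and in LM 12, 12, 30 and 36 (34.9%, 43.4%, 41.6% and 41.1%). One HOX gene was lower in each of DE(a)-DE(b), APS-DE(b), DE(a)-LM and MPS-LM. MEIS1 and MEIS2 were thus near 0 in PPS-24h while 34 of 37 HOX genes were above the control. Both were raised in DE(a)-LM, where 12 of 37 were, a share near that of all genes (34.9%). Between PPS and DE(a) in PM, where MEIS1 was lower after PPS, 15 HOX genes were higher and none lower (8.61%). MEIS2 and PKNOX2 were higher after PPS in DE(b), where 30 HOX genes were higher as well (17.4%).

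The other TALE genes (the IRX genes, TGIF1, TGIF2 and MKX), 8 of 9 tested, had more genes called lower than higher in 12 of the 16 comparisons with the control. In DE(a)-DE(b) and in PPS-DE(b) 3 of the 8 passed in either direction, a share close to the 34.7% and 34.6% of all genes. In APS-LM 1 was higher and 4 were lower (43.4% of all genes passed in either direction). The median log2 fold change there was -1.11 against 0.04 for all genes. In PPS-PM 0 were higher and 5 lower (40.9%). TGIF1, a corepressor in TGF-beta signalling, fell by 1.72 on the log2 scale in APS-LM (SE 0.21, adjusted p = 1.09e-06), while IRX3 was higher in all 4 LM conditions, with adjusted p from 5.06e-06 in DE(a)-LM to 0.000322 in MPS-LM. PBXIP1, which binds PBX proteins and hinders their binding to DNA, was higher than the control in all 4 LM conditions, by log2 fold changes of 1.22 in MPS to 1.9 in APS, and in DE(b) from DE(a), APS and MPS (1.47 to 1.51). In PPS-DE(b) it did not pass (0.38, SE 0.21, adjusted p = 0.174). EN1, a homeodomain factor that can pair with PBX, was higher in all 4 LM conditions, with adjusted p from 0.000729 in APS-LM to 0.00156 in PPS-LM.

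Genes whose pattern was most like a member were sought among the 12253 genes that reached a condition mean of 10 CPM, by Pearson's r of log2(CPM + 1) over the 17 condition means, which share the control and the order of treatment. For MEIS1 the highest r belonged to a row whose symbol is listed under more than 1 identifier, which leaves its counts uncertain, followed by OPN3 (0.882). MEIS2 was matched by CEP85L (0.961), LOXL2 (0.941) and FKBP7 (0.940), MEIS3 by MAGEB17 (0.908), GPR37 (0.906) and ARRB1 (0.901), and PBX2 by RGP1 (0.961), AL365205.1 (0.958) and ARFGAP3 (0.957). PBX3 was matched by KLHL4 (0.895), CUTC (0.850) and PYGB (0.826), PKNOX1 by N4BP2 (0.880), CNIH3 (0.833) and PRAG1 (0.831), and PKNOX2 by P3H3 (0.952), AHDC1 (0.952) and HDAC1 (0.945), a histone deacetylase.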

How the data were processed

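Poly(A) RNA of 34 libraries of ESI017 hPSCs was sequenced by the authors after a stranded preparation, and per the labels and the methods reads were quantified with Salmon 1.10.2 on GRCh38 and summarised in R 4.4.2. The deposited values are estimated counts per gene, which the authors summed from transcripts and did not normalize, and the strand setting of the counting is not given in the sources used here.

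Counts were rounded to whole numbers, and the 7 rows of PBX2 were summed (37951 rows became 37945). Genes were kept by filterByExpr (17890, all 8 members among them) and fitted with edgeR 4.0.16 in R 4.3.3 (TMM, quasi-likelihood, 1 mean per condition, 17 residual degrees of freedom), with Benjamini-Hochberg adjustment over all genes and a threshold of 0.05. The common dispersion was 0.0609. CPM used library totals. No replicate pair agreed within sampling noise. The replicates are described as biological, and p-values measure the spread between them. The members and gene lists were chosen with earlier results of these data known. All 8 members are named, and other genes by size of change or of r, not all of which are reported here. Alternatives were RLE scaling, no filter, a replicate block, only the libraries compared, DESeq2 1.42.0, a log2 fold change of at least 1, leave-one-out fits, another gene length and pseudocount (0.1), and, chosen after seeing the data, the PBX2 rows kept apart. On simulated counts of 17273 genes for MPS-24h against control, 39% of changes of 1 log2 unit and 79% of changes of 2 were called. Gene positions are from the GENCODE annotation and promoters from RefSeq (GRCh38.p14).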

Additional observations from a re-analysis of the deposited data

Results flagged for a closer look

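For 5 members the effect of PPS against DE(a) treatment on day 1 differed between day 2 media by a direct test of the difference (edgeR, adjusted over all 17890 genes). MEIS1 stood out in PM: its effect in LM exceeded that in PM by 4.82 on the log2 scale (SE 0.66, adjusted p = 6.37e-05), and PM minus DE(b) came to -4.67 (SE 0.74, adjusted p = 0.00034). In PM all 4 libraries of the 2 treatments showed it, at 25.1 and 40.2 CPM after DE(a) and 3.77 and 3.90 CPM after PPS.

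For MEIS2, PM minus DE(b) was -4.38 (SE 0.89, adjusted p = 0.00336) and LM minus DE(b) was -3.38 (SE 0.88, adjusted p = 0.0163). The second call was lost without DE(a)-DE(b) replicate 1, PPS-DE(b) replicate 1, either PPS-LM library or DE(a)-LM replicate 2 (adjusted p up to 0.101). PKNOX2 likewise differed between PM and DE(b), by -2.25 (SE 0.39, adjusted p = 0.000851), with 10.8 and 5.29 CPM in DE(a)-DE(b) and 26.4 and 29.8 CPM in PPS-DE(b).

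Between LM and DE(b) the effect on PBX3 differed by -1.32 (SE 0.27, adjusted p = 0.00203) and that on PKNOX1 by 0.94 (SE 0.20, adjusted p = 0.00282). With 2 libraries per condition no single library could be singled out as distant from its group.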

How the results depend on the processing

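The counts of members called moved by over 1.5 times in 2 families of comparisons. Between neighbouring 24 h populations, 3 calls became 8 without the filter on low counts, 5 with the replicate block, 7 with DESeq2 and 1 with only the libraries compared. Between day 2 media, 19 became 8 when a log2 fold change of at least 1 was also asked. Leaving out 1 library at a time gave 65 to 83 calls against the control (78 with all libraries), 2 to 4 between neighbouring 24 h populations, 56 to 61 for day 2 (59), 17 to 20 for the media (19), 17 to 23 for PPS against DE(a) (20) and 18 to 20 for the tests over all day 1 treatments (19). Directions turned with the primary PBX2 identifier alone (APS-PM against APS-24h, -0.48, and PPS-LM against PPS-24h, -0.19). Without 1 library none of the called values changed sign, and 49 of 149 uncalled ones did in at least 1 fit. They included PKNOX2 from PM to LM without DE(a)-LM or APS-LM replicate 2 (lowest -0.0194, highest over all such fits 0.0909) and PBX3 between PPS-DE(b) and DE(a)-DE(b) without DE(a)-DE(b) replicate 2 (lowest -0.0462, highest 0.51). Single calls were lost 13 times without the filter, 26 times with only the libraries compared, 1 time with RLE scaling, and in no case with DESeq2 or the block. The causes were not tested. All 198 calls were shared with the replicate block, which made 210. Same-numbered libraries deviated together weakly at the median (136 pairs of conditions, r from -0.196 to 0.569, median 0.162), but 97 pairs were over 0.1 and 3 under -0.1. Within a medium some shifts were shared. MEIS2 was higher in replicate 1 in all 4 PM conditions and in 0 of 4 LM conditions, and MEIS3 and PBX2 in all 4 of both. For MEIS1 it was 1 of 4 in PM and 2 of 4 in LM. The main fit did not pair the samples. The block allows a shift common to all conditions, not shifts that differ between media. At a few counts per library, levels of MEIS1 and MEIS2 in the control and at 24 h are limited by depth.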

Other observations

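The pseudogenes that share sequence with members were measured too. MEIS3P2 was higher than the control in 15 of 16 conditions, by 2.17 log2 units (SE 0.37, adjusted p = 6.57e-05) in PPS-LM, and MEIS3P1 in PPS-LM alone (1.37, SE 0.38, adjusted p = 0.0055). Both stayed at or below 6.02 CPM. Their highest conditions were not those of MEIS3, which was lowest among the treated conditions in PPS-PM and PPS-LM. PBX2P1 ran from 0 to 0.323 CPM, and a library at 0 allows up to 3 counts.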
